A study of Mus musculus with 6 samples.

Results

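Matricellular proteins are secreted into the extracellular matrix, where they act mainly on cell adhesion and signalling rather than as structural fibres. *Fn1* (fibronectin) is the adhesive glycoprotein that many of them bind. The set described here held 8 genes, *Thbs1*, *Thbs2* and *Thbs3* (thrombospondins 1 to 3), *Tnc* (tenascin-C), *Postn* (periostin), *Sparc* (osteonectin), *Fn1* and *Vcan* (versican). They were chosen with earlier results of these data known, and were taken by gene symbol from an RNA sequencing table of 18152 mouse genes. All 8 were among the 14131 genes that passed the filter on low counts, and each had at least 8.48 CPM (counts scaled to library size) in every library.

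The libraries came from the inner enamel epithelium (IEE), the dental epithelial layer that gives rise to ameloblasts, cut out of mandibular first molars by laser capture microdissection at E18.5. The control group held 3 libraries, which the labels call wild type and the study's methods describe as homozygous for the floxed *Kdf1* allele (*Kdf1 fl/fl*). The cKO group held 3 libraries from *K14-Cre;Kdf1 fl/fl* embryos, which carry the same floxed allele and a Cre recombinase under the keratin 14 promoter. The background was C57BL/6J, and no other allele, agent or treatment was named for either group. Keratin 14 is active in epithelium generally, so deletion was not restricted to the IEE, and the dental mesenchyme was not targeted. The labels number the libraries as biological replicates but do not say whether each came from a single embryo, so p-values measure the spread between these libraries.

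In the developing molar, the IEE rests on a basement membrane that faces the dental papilla, the mesenchyme whose outer cells become odontoblasts. Fibronectin and tenascin-C are known components of this boundary and of the papilla matrix. Periostin is best known from periosteum and the periodontal ligament, *Sparc* is abundant in odontoblasts and bone-forming cells, and versican is a hyaluronan-binding proteoglycan of loose mesenchyme. Thrombospondins are made by fibroblasts, endothelial and smooth muscle cells and platelets. Most of these proteins are thus better known as products of mesenchyme than of epithelium.

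*Kdf1*, the targeted gene, had 836, 731 and 835 counts in control replicates 1, 2 and 3 and 0, 1 and 0 counts in cKO replicates 1, 2 and 3, so the libraries matched their labels. Depth was similar, with 14713918 to 16675133 estimated counts per library. Libraries correlated at Pearson's r = 0.950 to 0.980 across genes within groups and at 0.895 to 0.965 between groups, where genes are not independent replicates. The criterion used below was the study's own, a change of 1 or more on the log2 scale in either direction together with an adjusted p no greater than 0.05. The p-values came from the quasi-likelihood fit of edgeR and were adjusted by the Benjamini-Hochberg method over all 14131 genes. With edgeR the criterion called 61 genes, 20 higher and 41 lower in cKO. The study's methods do not name its test, and DESeq2 at the same criterion called 980 genes, so the count depended on the test. The number of differentially expressed genes that the study reports was close to that of DESeq2 and far above that of edgeR.

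The largest differences between the groups were in *Postn* and the thrombospondins. Mean levels in cKO were 7.87 times (95% interval 3.14 to 19.7) the control level for *Thbs1*, 6.31 times (2.10 to 18.9) for *Thbs2*, 4.07 times (1.53 to 10.9) for *Thbs3* and 8.53 times (3.05 to 23.9) for *Postn*. *Fn1* stood at 2.83 times (1.06 to 7.51). *Vcan*, *Tnc* and *Sparc* stood at 1.44, 1.37 and 0.990 times, with intervals that include no difference. None of the 8 genes passed the criterion with edgeR, against 0.432% of all genes tested. With the replicate number as a block, *Thbs1* and *Postn* passed it, against 4.16% of all genes called higher in that fit. DESeq2 called 4 of the 8, *Thbs1*, *Thbs2*, *Thbs3* and *Postn*, against 5.05% of all genes called higher. An edgeR adjusted p of at most 0.1 with the same fold would take in 3 of the 8, *Thbs1*, *Thbs2* and *Postn*, against 3.16% of all genes called higher. The same 3 genes passed the criterion when cKO replicate 3 was left out, against 2.29% of all genes called higher. At an unadjusted edgeR p of at most 0.05, 5 of the 8 were higher in cKO, against 13.0% of all genes tested, and 0 of the 8 were lower, against 11.6%. In 3 of the 8 every cKO library lay above every control library, against 14.5% of all genes. The 8 genes, and the gene lists used below, were chosen with earlier results of these data known. The shares over all genes therefore give a scale and do not test these sets.

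**Figure D1:**
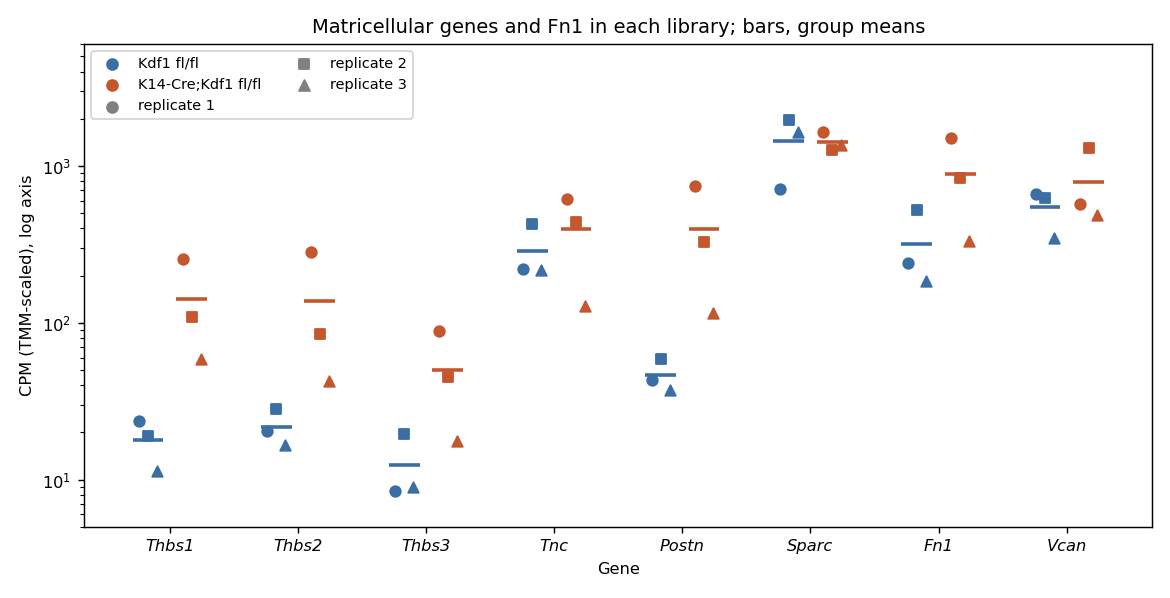
CPM of each gene in each library on a log axis, with control libraries in blue, cKO libraries in orange, a marker shape per replicate number and bars for group means. *Thbs1*, *Thbs2* and *Postn* are the genes whose groups do not overlap, and cKO replicate 1 (orange circles) is the highest of the 6 libraries in 6 of the 8 genes.

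Compared per transcript length, as TPM (counts scaled to transcript length and library size), *Sparc* was by far the most abundant of the 8 transcripts in both groups, at 1272 ± 606 TPM (SD, n = 3) in control and 1335 ± 253 TPM in cKO. In control libraries it was followed by *Vcan* (145 ± 47.6 TPM), *Tnc* (83.4 ± 39.3 TPM), *Fn1* (70.1 ± 44.3 TPM) and *Postn* (27.9 ± 8.41 TPM). The thrombospondins were lowest in control, at 7.39 ± 4.21 TPM for *Thbs3*, 6.66 ± 2.20 TPM for *Thbs2* and 5.59 ± 2.09 TPM for *Thbs1*. The libraries of *Sparc* lay above those of every other member. The libraries of *Postn* lay just below those of *Fn1* and above those of all 3 thrombospondins. Neighbours among *Vcan*, *Tnc* and *Fn1*, and among the 3 thrombospondins, overlapped. In cKO libraries the order below *Sparc* was *Postn* (255 ± 218 TPM), *Vcan* (239 ± 129 TPM), *Fn1* (206 ± 148 TPM), *Tnc* (122 ± 81.3 TPM), *Thbs1* (46.8 ± 36.8 TPM), *Thbs2* (45.1 ± 44.9 TPM) and *Thbs3* (31.9 ± 24.2 TPM). Each neighbouring pair below *Sparc* overlapped in this group. Among all 18152 genes ranked by mean TPM, *Postn* stood at rank 5527 in control and at rank 515 in cKO. *Thbs1* stood at ranks 10427 and 3678, while *Sparc* stood at ranks 108 and 102.

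Promoter windows were available for 6 of the 8 genes in RefSeq on GRCm38.p6. *Thbs1* and *Fn1* were not matched. The 100 bases directly upstream of the annotated start are shown 5′ to 3′ on the gene's strand for *Thbs2*, *Thbs3* and *Postn*, which were higher in cKO, and for *Sparc*, whose group means were nearly equal. Capitals mark matches, on either strand, to motifs searched for in the 250 upstream bases. These positions are RefSeq's, since the build used for the expression table was not given in the sources used here.
*Thbs2*, chr17:14694263-14694362, minus strand: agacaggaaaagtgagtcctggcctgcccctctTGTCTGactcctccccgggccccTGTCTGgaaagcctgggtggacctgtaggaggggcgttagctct
*Thbs3*, chr3:89215080-89215179, plus strand: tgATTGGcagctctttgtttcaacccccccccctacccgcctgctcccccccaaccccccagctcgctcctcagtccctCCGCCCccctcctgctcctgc
*Postn*, chr3:54361007-54361106, plus strand, the second of its annotated starts: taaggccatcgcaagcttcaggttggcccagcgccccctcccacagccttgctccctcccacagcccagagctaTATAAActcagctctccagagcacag
*Sparc*, chr11:55420081-55420180, minus strand: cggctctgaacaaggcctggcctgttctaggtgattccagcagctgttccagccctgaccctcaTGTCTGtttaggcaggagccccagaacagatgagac

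In these 4 stretches the capitals are a TATA box in *Postn* (TATAAA, from 26 to 21 bases upstream), CAGACA read on the other strand in *Thbs2* and *Sparc*, and a CCAAT box and a GC box (GGGCGG) in *Thbs3*, both on the other strand. The 6 motifs were chosen after the windows had been looked at. Over the 250 upstream bases on both strands, TATAAA was in 4 of the 8 windows of these genes and in 12.4% of 32851 windows of all genes. Beside the *Postn* match, that of *Thbs2* lay 126 to 121 bases upstream on the other strand. That of *Tnc* lay 126 to 121 bases upstream in its first window and 205 to 200 in its second. GGGCGG was in 4 of 8 against 32.7%, CCAAT in 3 of 8 against 33.8%, and CAGACA, the core bound by SMAD factors, in 3 of 8 against 17.1%. The AP-1 motif TGANTCA, in 6.75% of all windows, and the TEAD motif GGAATG, in 12.6%, had no match in the 8. The 2 windows of *Tnc* overlap each other, so their TATAAA is the same site counted in both windows, as is their GGGCGG. A match is a run of letters, not a bound site.

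Thrombospondin-1, a trimeric glycoprotein that activates latent TGF-β and restrains vessel growth, had *Thbs1* (gene ID 21825) at 23.6, 19.0 and 11.4 CPM in control replicates 1, 2 and 3. In cKO replicates 1, 2 and 3 it was at 257, 109 and 59.0 CPM. The groups did not overlap, and the lowest cKO library had 2.499 times the highest control library. This came to a log2 fold change of 2.98 ± 0.56 (SE), with an edgeR adjusted p of 0.0637. With the replicate block it was 2.79 with an adjusted p of 0.00504, past the criterion, and with DESeq2 the adjusted p was 2.81e-07. Leaving out cKO replicate 1 lowered it to 2.24 (edgeR adjusted p = 0.104), and leaving out cKO replicate 3 raised it to 3.37 (edgeR adjusted p = 0.0476).

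Thrombospondin-2, the close relative that also binds CD36 and CD47 and shapes collagen fibrils, had *Thbs2* (21826) at 20.4, 28.1 and 16.7 CPM in control and at 284, 84.3 and 42.8 CPM in cKO replicates 1, 2 and 3. Again every cKO library lay above every control library, by 1.52 times at the closest pair, with cKO replicate 1 at 6.64 times cKO replicate 3. The log2 fold change was 2.66 ± 0.67 (SE), with an edgeR adjusted p of 0.0867. DESeq2 gave an adjusted p of 0.0149, and the edgeR fit with the block gave 0.0506. Without cKO replicate 1 the fold on the log2 scale was 1.56 (edgeR adjusted p = 0.114).

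Thrombospondin-3 belongs to the subgroup that forms larger multimers and is known from the developing skeleton. *Thbs3* (21827) was at 8.48, 19.6 and 8.97 CPM in control and at 88.2, 45.2 and 17.7 CPM in cKO replicates 1, 2 and 3. The groups overlapped, because cKO replicate 3 lay just below control replicate 2. The log2 fold change was 2.03 ± 0.60 (SE), with an edgeR adjusted p of 0.114, while DESeq2 gave 0.00405. Summed over the 3 thrombospondins, the level was 18.52, 27.5 and 12.9 TPM in control and 243, 88.1 and 40.9 TPM in cKO, so the lowest cKO sum lay above the highest control sum.

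Periostin, which binds collagen and tenascin-C and aids collagen cross-linking, had *Postn* (50706) at 42.9, 58.9 and 37.4 CPM in control. In cKO replicates 1, 2 and 3 it was at 743, 329 and 116 CPM. This was the largest difference of the 8 genes, with no overlap and 1.98 times between the closest libraries of the groups. The log2 fold change was 3.09 ± 0.63 (SE), rank 112 when the 14131 genes are ordered from the highest log2 fold change, with an edgeR adjusted p of 0.0674. The block gave 2.73 with an adjusted p of 0.0280, and DESeq2 an adjusted p of 7.59e-07, both past the criterion. Without cKO replicate 1 it was 2.27 (edgeR adjusted p = 0.111), and without cKO replicate 3 it was 3.55 (edgeR adjusted p = 0.0476).

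Tenascin-C, which loosens adhesion to fibronectin and binds periostin, had *Tnc* (21923) at 219, 426 and 216 CPM in control and at 619, 439 and 127 CPM in cKO. The highest and the lowest of the 6 libraries were both cKO libraries. Its log2 fold change was 0.46, with a 95% interval of -0.83 to 1.75 and an edgeR adjusted p of 0.641. Without cKO replicate 1 it was -0.02, so its direction rested on that library.

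*Sparc* encodes a calcium- and collagen-binding protein of mineralising matrix. Its level (20692) was 717, 1968 and 1642 CPM in control and 1656, 1261 and 1368 CPM in cKO. The cKO libraries lay within the control range, which was set by a low control replicate 1. Between the groups the log2 fold change was -0.01, with a 95% interval of -0.84 to 0.81 and an edgeR adjusted p of 0.987, so a difference up to 0.560 or 1.75 times the control level could not be told from none.

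Fibronectin is assembled into fibrils at the cell surface through the integrin formed by *Itga5* and *Itgb1*. *Fn1* (14268) was at 240, 525 and 184 CPM in control and at 1518, 833 and 331 CPM in cKO. The groups overlapped, since cKO replicate 3 lay below control replicate 2, although cKO replicates 1 and 2 lay above every control library. The log2 fold change was 1.50 ± 0.60 (SE), with an edgeR unadjusted p of 0.0402 and adjusted p of 0.182. Neither DESeq2 (adjusted p = 0.172) nor the block (edgeR adjusted p = 0.0966) took it past the criterion, and without cKO replicate 1 the log2 fold change was 0.89.

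Versican, a large chondroitin sulphate proteoglycan that binds hyaluronan, had *Vcan* (13003) at 658, 628 and 347 CPM in control and at 574, 1300 and 485 CPM in cKO. Here cKO replicate 2 was highest, unlike any other of the 8 genes. The log2 fold change was 0.53 ± 0.42 (SE), with an edgeR adjusted p of 0.467. Without cKO replicate 2 it was -0.01, so its direction, too, depended on a single library.

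**Figure D2:**
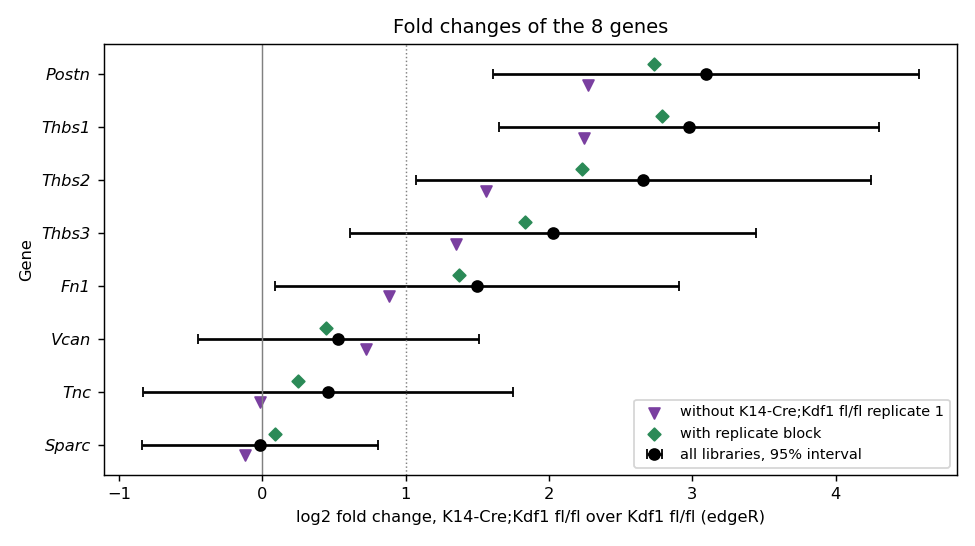
Log2 fold change of cKO over control for each gene from edgeR, with the 95% interval from all libraries (black), the value with the replicate block (green) and the value without cKO replicate 1 (purple). The 5 upper genes have intervals above 0, from *Postn* at 3.09 to *Fn1* at 1.50, and *Sparc* sits at -0.01.

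The make-up of the 8 transcripts differed between the groups in the thrombospondins and *Postn*. The summed level of the 8 was 957, 2328 and 1569 TPM in control and 3098, 2138 and 1607 TPM in cKO, and the groups overlapped. *Postn* made up 2.69%, 1.60% and 1.32% of this sum in control and 16.0%, 9.40% and 4.23% in cKO. *Thbs1* made up 0.208% to 0.763% in control and 1.11% to 2.85% in cKO. For these 2 genes, and for *Thbs2* and *Thbs3*, the share in every cKO library lay above that in every control library. *Sparc* made up 65.9%, 78.8% and 86.0% in control and 52.4%, 53.7% and 76.8% in cKO, with overlap. The shares of *Tnc*, *Fn1* and *Vcan* overlapped as well. No test was run on these shares, which add to a fixed total within a library.

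**Figure D3:**
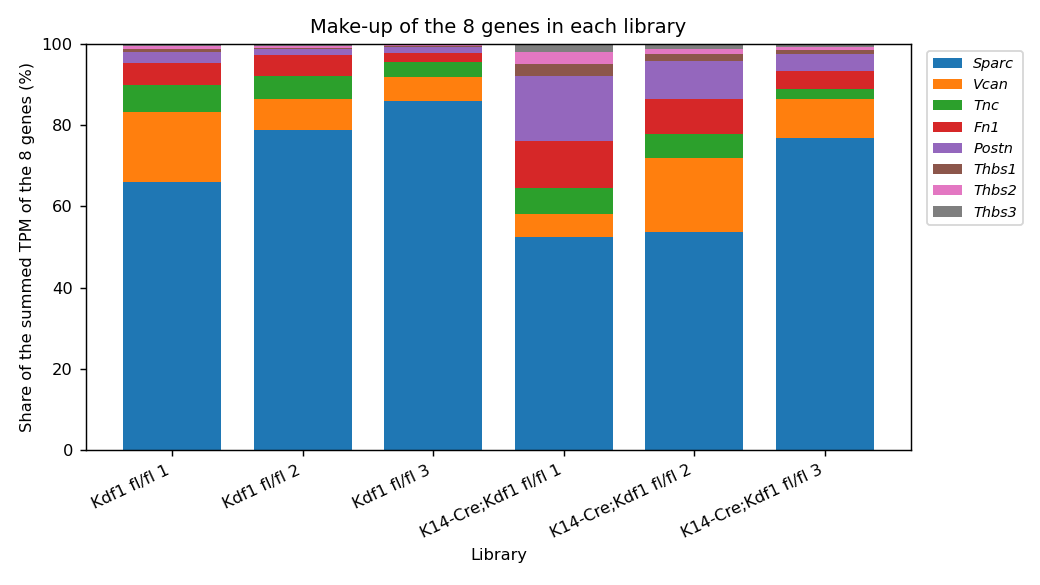
Share of each gene in the summed TPM of the 8 genes, 1 bar per library, in percent. *Sparc* fills most of every bar, from 52.4% to 86.0%, and the *Postn* band widens from at most 2.69% in control to at least 4.23% in cKO.

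The cKO libraries differed strongly among themselves. In 6 of the 8 genes cKO replicate 1 had at least 4 times the level of cKO replicate 3, a gap seen in 2.53% of all genes tested, and the ratio ran from 4.35 for *Thbs1* to 6.64 for *Thbs2*. The exceptions were *Sparc* (1.21 times) and *Vcan* (1.19 times). The cKO replicate 1 library was the highest of all 6 in 6 of the 8 genes, against 20.5% of all genes tested. The median log2 fold change of the 8 was 1.76, and 1.12 without that library, beside -0.004 and 0.022 over all genes.

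Cell type markers also differed between the groups, some higher and some lower in cKO. The epithelial markers *Krt14* (keratin 14) and *Cdh1* (E-cadherin) were lower in cKO, at log2 fold changes of -1.50 each, with edgeR adjusted p-values of 0.0842 and 0.0498, whereas *Epcam* stood at -0.05 (0.897). With the replicate block *Krt14* passed the criterion (-1.49, edgeR adjusted p = 0.00685). Of 11 dental epithelium markers 10 were lower, and their summed level was 13682 to 44856 TPM in control and 5008 to 8734 TPM in cKO. Much of that gap came from the enamel gene *Amelx*, at 4017, 15804 and 32209 TPM in control and at 9.45, 173 and 699 TPM in cKO. Without it the summed level was 8798 to 12647 TPM in control and 4835 to 8035 TPM in cKO. Of 12 dental papilla markers 11 were higher, among them *Twist1* (2.23, edgeR adjusted p = 0.0498), *Prrx1* (2.59, edgeR adjusted p = 0.0667) and *Vim* (0.66, edgeR adjusted p = 0.179). Their summed level, 812 to 2098 TPM in control and 1340 to 1974 TPM in cKO, includes the odontoblast gene *Dspp*, the marker of this list that was lower (-3.45, edgeR adjusted p = 0.152, and -4.18, 0.00957, with the block). *Prrx1* itself was at 21.9, 40.3 and 15.5 CPM in control and at 266, 116 and 86.0 CPM in cKO, and passed the criterion with the block (2.53, edgeR adjusted p = 0.0217). Like *Prrx1*, *Twist1* and *Vim* were highest in cKO replicate 1, whereas some other papilla markers were highest in cKO replicate 2. DESeq2 called 7 of the 12 papilla markers higher and 1 lower, against 5.05% and 1.88% of all genes. The block also called 7 higher and 1 lower, against 4.16% and 1.92% of all genes. Of the 11 epithelial markers DESeq2 called 3 lower and the block 4, and both called 0 higher.

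Markers of vessel and immune cells had mostly positive fold changes. None of them passed the criterion with edgeR, against 0.432% of all genes tested. DESeq2 called higher 2 of 8 endothelial, 1 of 6 pericyte and smooth muscle, 5 of 9 immune and 1 of 3 platelet markers tested. The block called higher 1 immune and 1 platelet marker, and 0 endothelial and 0 pericyte markers. Over all genes, DESeq2 called 5.05% and the block 4.16% higher. The sums of these lists were highest in cKO replicate 1. Without that library the median log2 fold change went from 0.93 to 0.52 for endothelial, from 0.91 to 0.18 for pericyte and smooth muscle, from 1.42 to 0.86 for immune, from 1.00 to 0.65 for platelet and from 0.16 to -0.22 for erythroid markers. All 8 endothelial markers were higher, summing to 179 to 237 TPM in control and 228 to 660 TPM in cKO, with *Pecam1* at a log2 fold change of 1.11 (edgeR adjusted p = 0.114). Of 6 pericyte and smooth muscle markers 5 were higher (179 to 223 TPM in control, 181 to 739 TPM in cKO). All 9 immune markers were higher (84.2 to 182 TPM in control, 169 to 536 TPM in cKO), with *Ptprc* at 0.73 (edgeR adjusted p = 0.534). All 3 platelet markers tested were higher (14.5 to 27.5 TPM for the list of 5 in control, 28.8 to 56.3 TPM in cKO). The pericyte sums of cKO replicates 2 and 3 were 243 and 181 TPM, near the control range. Fibroblast and follicle markers were higher in 4 of 7 (1298 to 7810 TPM in control, 3973 to 5061 TPM in cKO), and bone markers in 1 of 6 tested (302 to 1440 TPM in control, 423 to 926 TPM in cKO). DESeq2 called 3 fibroblast and follicle markers and 1 bone marker higher, and the block 4 and 0. Both fits called 0 of these markers lower. Of the remaining lists, 4 of 5 erythroid markers (1983 to 3134 TPM in control, 2104 to 3562 TPM in cKO), 3 of 5 neural markers tested (205 to 417 TPM in control, 138 to 213 TPM in cKO), 1 of 2 cartilage markers tested (36.6 to 46.4 TPM in control, 30.4 to 36.5 TPM in cKO) and 1 of 2 muscle markers tested (8.73 to 12.3 TPM in control, 9.93 to 13.2 TPM in cKO) were higher. In bulk libraries such as these, more cells of a type and more RNA per cell cannot be told apart, and the part of other cells in the fold changes of the 8 genes was not tested.

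**Figure D4:**
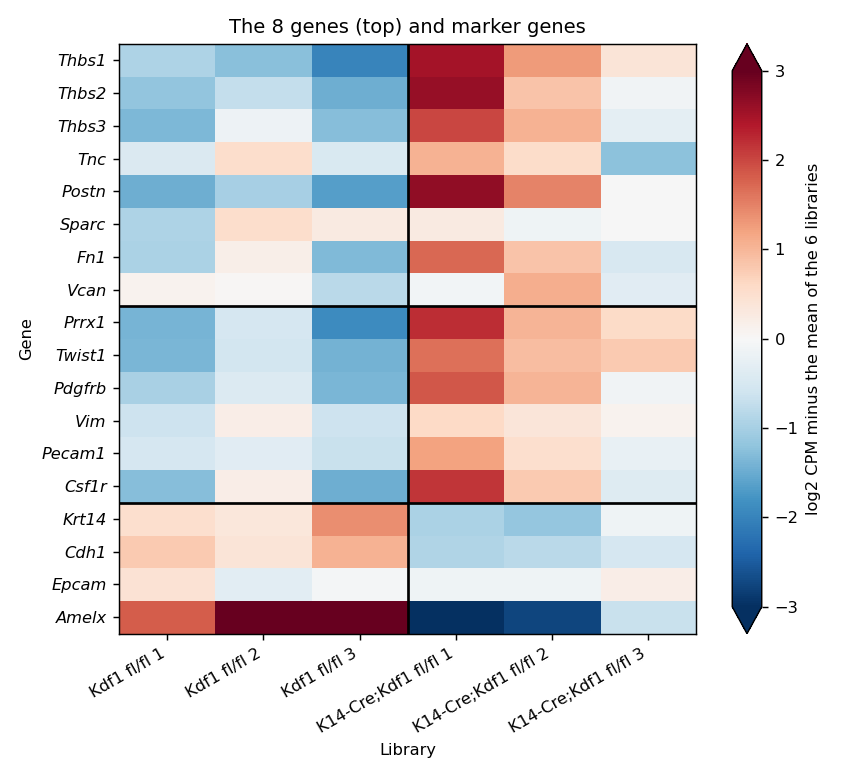
Log2 CPM minus the mean of the 6 libraries, in red above and blue below that mean, for the 8 genes (upper block), mesenchymal, endothelial and macrophage markers (middle) and epithelial markers (lower). *Thbs1*, *Thbs2*, *Thbs3* and *Postn* have their highest value in cKO replicate 1 and negative values in all 3 control libraries. The mesenchymal *Prrx1*, *Twist1* and *Pdgfrb* and the endothelial *Pecam1* do so too, while *Krt14*, *Cdh1* and *Amelx* are positive in control.

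The level of each gene was also read relative to 5 marker genes in the same library, TPM over TPM, a set of denominators chosen after the values had been seen. Relative to *Vim*, *Thbs1*, *Thbs2* and *Postn* were higher in every cKO library than in every control library, at 4.40, 3.61 and 4.89 times the control mean. Relative to *Prrx1*, a transcription factor of jaw mesenchyme, *Thbs1*, *Thbs2*, *Thbs3* and *Postn* overlapped between the groups, at 1.14, 0.853, 0.644 and 1.20 times. On the same scale *Tnc*, *Sparc*, *Fn1* and *Vcan* were lower in every cKO library, at 0.223, 0.182, 0.466 and 0.318 times. Relative to *Pdgfrb*, a receptor of fibroblasts and pericytes, *Thbs1* and *Postn* were higher without overlap (1.87 and 1.90 times) and *Tnc*, *Fn1* and *Vcan* were lower without overlap (0.341, 0.717 and 0.502 times). Relative to *Pecam1*, *Thbs1*, *Thbs2* and *Postn* were higher without overlap (3.39, 2.55 and 3.53 times) and *Tnc* lower (0.615 times). Relative to *Csf1r*, a macrophage receptor, *Postn* was higher without overlap (1.95 times) and *Tnc* lower (0.374 times). All other ratios overlapped, and no test was run on any of them. *Postn* was above the control range for 4 of the 5 denominators, *Thbs1* for 3 and *Thbs2* for 2, and *Tnc* was below it for 4. Relative to *Pecam1* the gap for *Tnc* was slight, with cKO replicate 2 at 1.753 and control replicate 1 at 1.766. The 5 denominators were themselves higher on average in cKO. Their edgeR log2 fold changes were 2.59 (*Prrx1*), 2.001 (*Pdgfrb*), 1.85 (*Csf1r*), 1.11 (*Pecam1*) and 0.66 (*Vim*). A gene that rose less than its denominator, such as *Tnc* at 0.46, falls in such a ratio by construction. These tallies depend on the denominators chosen and were not set against the same ratios over all genes. The part of other cells was not tested.

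Related matricellular proteins were mostly higher in cKO. Of 20 such genes 17 were tested, 14 of them higher, and 12 were higher at an unadjusted edgeR p of at most 0.05, against 13.0% of all genes. None passed the criterion with edgeR, against 0.432% of all genes. With DESeq2 5 passed and with the block 9, all of them higher, against 5.05% and 4.16% of all genes called higher. The median log2 fold change was 1.62, and 1.13 without cKO replicate 1. *Spp1* (osteopontin, a phosphoprotein of bone and macrophages) was at 28.5, 47.3 and 26.2 CPM in control and at 1017, 116 and 364 CPM in cKO, a log2 fold change of 3.87 (edgeR adjusted p = 0.0656), with no overlap. The *Sparc* relatives *Smoc1* and *Smoc2* had log2 fold changes of 3.20 (edgeR adjusted p = 0.178) and 2.41 (0.167), with overlapping groups, and both passed with the block (0.00695 and 0.0241). *Smoc2* was at 22.0, 81.7 and 14.8 CPM in control and at 225, 368 and 37.6 CPM in cKO.

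Receptors differed among themselves, and no test compared them with their ligands. *Itga5* and *Itgb1*, the fibronectin receptor subunits, had log2 fold changes of 0.53 (edgeR adjusted p = 0.288) and 0.23 (0.300). *Itgav*, the partner in integrins that bind fibronectin and periostin, stood at 0.14 (0.524), and *Cd47*, a thrombospondin receptor, at 0.19 (0.497). Over all 20 receptors tested of 21, 16 were higher and 4 lower, with a median of 0.45 (0.28 without cKO replicate 1). At an unadjusted edgeR p of at most 0.05, 8 were higher and 1 was lower, against 13.0% and 11.6% of all genes. None passed the criterion with edgeR, against 0.432% of all genes. With DESeq2 5 passed and with the block 2, all higher, against 5.05% and 4.16% of all genes called higher. Among receptors with a mean of at least 5 CPM, the largest differences were in *Cd36*, the thrombospondin and fatty acid receptor of microvessels and macrophages (2.76, 2.36 and 2.65 CPM in control, 33.3, 6.86 and 4.55 CPM in cKO, log2 fold change 2.52, edgeR adjusted p = 0.114), *Itgb3* (1.83, 0.151) and *Itga8* (1.61, 0.0955). Of these *Itga8* passed the criterion with the block (1.62, edgeR adjusted p = 0.0149). The *Cd36* and *Itgb3* values were highest in cKO replicate 1, the highest library in 20.5% of all genes tested, and those of *Itga8* in cKO replicate 2.

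Enzymes that assemble or process the matrix were higher in 12 of 15, with a median log2 fold change of 1.45 (0.80 without cKO replicate 1). At an unadjusted edgeR p of at most 0.05, 8 were higher and 1 was lower, against 13.0% and 11.6% of all genes. None passed with edgeR, against 0.432% of all genes. With DESeq2 5 were called higher and 1 lower, against 5.05% and 1.88% of all genes. With the block 5 were called higher and 0 lower, against 4.16% and 1.92% of all genes. *Tgm2*, the transglutaminase that cross-links fibronectin, was at 6.15, 6.12 and 2.72 CPM in control and at 155, 15.3 and 28.0 CPM in cKO, a log2 fold change of 3.72 (edgeR adjusted p = 0.0841). The versican-cleaving proteases *Adamts5* and *Adamts20* had log2 fold changes of 2.61 (0.0637) and 2.49 (0.164) by edgeR. All 3 passed the criterion with the block, *Tgm2* at 3.15 (edgeR adjusted p = 0.0410), *Adamts5* at 2.43 (0.0248) and *Adamts20* at 2.46 (0.00422). *Adamts5* had no overlap between the groups, at 6.15, 8.30 and 4.61 CPM in control and 70.7, 22.4 and 23.5 CPM in cKO.

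Hyaluronan and lectican partners of versican showed no common direction. Of 17 genes 15 were tested, 8 higher and 7 lower, with a median log2 fold change of 0.29 (0.19 without cKO replicate 1). At an unadjusted edgeR p of at most 0.05, 2 were higher and 1 was lower, against the 13.0% and 11.6% of all genes given above. None passed with edgeR, against 0.432% of all genes. With DESeq2 1 was called higher and with the block 2, against 5.05% and 4.16% of all genes called higher. *Bcan* (brevican) had a log2 fold change of -1.55 (edgeR adjusted p = 0.395), *Hapln1*, the link protein that joins versican to hyaluronan, 1.30 (0.434), and *Tnfaip6*, a hyaluronan-binding protein of inflammation, 1.16 (0.199). *Hapln1* was at 15.4, 64.8 and 12.3 CPM in control and at 25.8, 178 and 24.9 CPM in cKO, highest in cKO replicate 2, as *Vcan* was. With the block *Hapln1* passed the criterion (1.09, edgeR adjusted p = 0.0155).

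**Figure D5:**
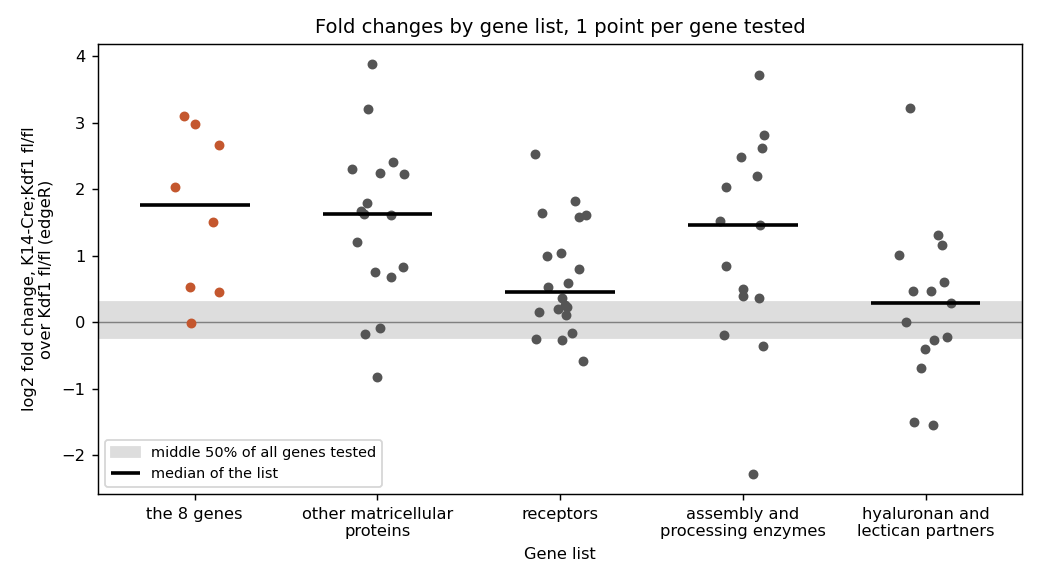
Log2 fold change of cKO over control from edgeR for each gene tested, by list, with the list median as a bar and the middle 50% of all genes tested in grey. The medians of the 8 genes (1.76), the other matricellular proteins (1.62) and the processing enzymes (1.45) lie well above the grey band, that of the receptors (0.45) lies just above it and that of the versican partners (0.29) inside it.

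The pattern of each gene across the 6 libraries was compared by the root mean square difference of log2 CPM after centring, a description over 6 libraries. The 5 genes outside the lists nearest to the mean pattern of the 8 were *Jdp2* (a transcriptional repressor that pairs with AP-1 proteins, 0.0546 log2 units), *Frk* (a tyrosine kinase, 0.0857), *Runx1t1* (a transcriptional corepressor, 0.0956), *Rab3il1* (an exchange factor for Rab proteins, 0.143) and *Fat4* (an atypical cadherin, 0.143). Among the 8, *Thbs3* and *Fn1* were the nearest pair at 0.271, followed by *Thbs2* and *Postn* at 0.311, and *Postn* was also nearest to *Thbs1* at 0.333. *Sparc* and *Vcan* stood furthest from the others, at 0.745 and 0.712 from *Tnc*, their nearest.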

How the data were processed

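RNA from laser-captured IEE of 3 control and 3 cKO libraries was extracted with TRIzol and sequenced from TruSeq libraries. The authors deposited a table of estimated counts, TPM and FPKM per gene. Per the submitters' processing notes, BWA 0.7.12, Picard 2.6.0 and StringTie were used, with no role given, and the genome build and annotation are not given in the sources used here. The deposited estimated counts held 10.9% to 11.5% of values that were not whole, and were rounded. The 6 average columns in the table were not used. The authors' TPM values, scaled for transcript length, served for levels between genes, and the deposited FPKM only as an alternative for shares.

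Genes were filtered with filterByExpr, scaled with TMM (factors 0.950 to 1.03) and tested with edgeR 4.0.16 (R 4.3.3) by a robust quasi-likelihood F-test on group alone, with Benjamini-Hochberg adjustment over 14131 genes. The standard error was the log2 fold change over the square root of F. CPM values are TMM-scaled, and 3 counts correspond to 0.182 to 0.198 CPM. Alternatives used DESeq2 1.42.0, limma 3.58.1, other scalings and filters, a replicate block, TPM on a log2 scale with pseudocounts of 1 and 0.1, and each library left out. The scripts were tested on simulated data. Deviations of same-numbered libraries from their group means correlated at 0.13, 0.32 and 0.50, all above the 0.1 set for reading the shared replicate numbers as pairs, although the labels do not say what the numbers share. Unlike-numbered libraries correlated at -0.41 to 0.14. Control replicate 2 with cKO replicate 1 (0.14) also passed 0.1, so the threshold did not single out same-numbered libraries and the pairing is uncertain. Blocked values are given as an alternative where they change the call of a gene whose test is given.

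The 8 genes and the lists were chosen with earlier results of these data known. Genes named beside the 8 were *Kdf1*, 4 main receptors, 8 markers, the 3 tested genes of each list with the largest absolute log2 fold change at a mean of at least 5 CPM, and the 5 genes nearest in pattern. Other genes named (*Amelx*, *Dspp*, *Pdgfrb* and *Csf1r*) were chosen after their values were seen. Figures were drawn with matplotlib 3.10.9.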

Additional observations from a re-analysis of the deposited data

How the results depend on the processing

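With edgeR and all libraries, 0 of the 8 genes and 61 of all genes passed the criterion, and 5 of the 8 had an unadjusted p of at most 0.05. DESeq2 called 4 of the 8 (*Thbs1* at a log2 fold change of 3.00, *Thbs2* at 2.68, *Thbs3* at 2.04 and *Postn* at 3.12) and 980 of all genes. With the replicate block, which reads the shared numbers as a pairing, 2 of the 8 (*Thbs1* at 2.79 and *Postn* at 2.73) and 860 of all genes passed, and it changed no other call among the 8. An adjusted p of at most 0.1 with the same fold called 3 of the 8 (*Thbs1*, *Thbs2* and *Postn*, against 3.16% of all genes called higher) and 669 of all genes. Over all genes the count was 6 with limma-voom, 7 with DESeq2 size factors in edgeR, 9 with library size alone, 103 with no filter, 6 with at least 10 counts in every library and 16 on log2(TPM + 1). Leaving out a library gave 0 to 3 of the 8 and 1 to 465 of all genes. The 3 and the 465 came without cKO replicate 3, where *Thbs1* (3.37), *Thbs2* (3.11) and *Postn* (3.55) passed, against 2.29% of all genes called higher, and each other omission left 0 of the 8. The cause of these differences was not tested.

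Leaving out each library, log2 fold changes ranged from 2.24 to 3.37 for *Thbs1*, 1.56 to 3.11 for *Thbs2*, 1.35 to 2.52 for *Thbs3*, -0.015 to 0.89 for *Tnc*, 2.27 to 3.55 for *Postn*, 0.89 to 2.07 for *Fn1*, -0.33 to 0.27 for *Sparc* and -0.010 to 0.80 for *Vcan*. *Sparc* turned from -0.01 to 0.10 with limma-voom, 0.0089 with upper quartile scaling, 0.038 with library size alone, 0.00058 with at least 10 counts in every library, 0.088 with the replicate block, and 0.19 and 0.19 on log2(TPM + 1) and log2(TPM + 0.1). No share of a gene in the summed TPM moved by more than 1 SD with a library left out or with FPKM. At these depths counting error was small beside the spread between libraries, with a variance between replicate pairs of 36.0 to 76.7 times that expected from sampling, and the common biological coefficient of variation was 25.4%.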

Other observations

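Some relatives of the 8 genes outside the naming rule, picked after their values were seen, differed between the groups with less spread among the cKO libraries. *Ccn2* (connective tissue growth factor) was at 74.7, 47.5 and 36.9 CPM in control and at 190, 138 and 157 CPM in cKO, a log2 fold change of 1.61 ± 0.27 (SE, edgeR adjusted p = 0.0556, DESeq2 adjusted p = 1.28e-06). *Cacna2d1*, the calcium channel subunit that binds thrombospondins, was at 11.9, 22.6 and 14.6 CPM in control and at 43.0, 47.2 and 56.6 CPM in cKO, at 1.58 ± 0.25 (SE, edgeR adjusted p = 0.0526, DESeq2 adjusted p = 2.5e-06). *Sdc4*, a heparan sulphate co-receptor for fibronectin, was at 94.7, 87.3 and 76.2 CPM in control and at 164, 128 and 154 CPM in cKO, at 0.79 ± 0.14 (SE, edgeR adjusted p = 0.0582, DESeq2 adjusted p = 9.2e-05). In these 3 genes every cKO library lay above every control library, as in 14.5% of all genes tested. Since the 3 were picked after their values were seen, this lack of overlap is part of the picking. With the replicate block *Ccn2* (1.66, edgeR adjusted p = 0.00671) and *Cacna2d1* (1.62, 0.0105) passed the criterion, while *Sdc4* (0.79, 0.0187) did not reach its fold. In *Cacna2d1* cKO replicate 3 was the highest library, unlike in the thrombospondins.

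*Thbs4*, another thrombospondin of the larger multimers, was at 9.86, 24.9 and 5.31 CPM in control and at 108, 62.8 and 19.3 CPM in cKO, a log2 fold change of 2.25 ± 0.74 (SE, edgeR adjusted p = 0.133), with overlap, and passed the criterion with the block (2.21, edgeR adjusted p = 0.0344). *Comp*, the cartilage thrombospondin, had 0.0606 to 0.188 CPM in control and 0.0629 to 0.593 CPM in cKO and was not tested.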
